A study of Mus musculus with 30 samples.

Results

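The class IIa histone deacetylases (Hdac4, Hdac5, Hdac7 and Hdac9) and the MEF2 transcription factors (Mef2a, Mef2b, Mef2c and Mef2d) were followed in RNA-seq libraries from mouse whole brain. They were taken by name from the deposited table, and all 8 genes were found among its 19737 genes. The question was whether the differences in Hdac4 and in Mef2a were shared by their paralogs. The study profiled 30 libraries of male C57BL/6N mice, with 1 mouse per library and 5 libraries in each of 6 groups. WT mice carried 2 intact copies of Arid1b, and HT mice (Arid1b+/–) carried 1 copy from which exon 5 had been deleted in the germline with a CRISPR/Cas9 nickase, so that every cell type was heterozygous. The P10 HT and P10 WT brains came from untreated pups at postnatal day 10. The other 4 groups were collected at postnatal day 120. HT-Flx and WT-Flx mice had been nursed from P3 to P21 by dams that drank fluoxetine, a selective serotonin reuptake inhibitor, at 0.1 mg/ml in water sweetened with 0.2% saccharin, and HT-Veh and WT-Veh mice by dams that drank the sweetened water alone. All pups came from HT males and WT females, so that no group had an HT mother, and all P120 mice drank plain water after weaning. Drug exposure was through milk, and the dose that reached each pup is not known from the labels.

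Class IIa HDACs bind MEF2 factors on DNA and recruit a corepressor complex, which carries the active deacetylase HDAC3. Calcium-regulated and other kinases phosphorylate class IIa HDACs, 14-3-3 proteins then hold them in the cytoplasm, and MEF2 becomes free to bind coactivators such as p300. In neurons MEF2 factors control activity-regulated genes, among them Arc and Nr4a1, and the number of excitatory synapses. HDAC4 has been studied for its part in memory and synaptic function, HDAC5 for its response to drugs of abuse and neuronal activity, and HDAC7 mainly in blood vessels and lymphocytes, while HDAC9 has been linked to dendrite growth. MEF2C is a known gene of intellectual disability and autism.

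Promoter sequences of the 3 members that bear on this pairing are given first, each 300 bases long and spanning the transcription start, as RefSeq lists them on GRCm38.p6. Hdac4 and Mef2a are the genes in question, and Hdac5 is shown because its promoter and that of Mef2a were the ones among the members' promoters that held a match to the MEF2 consensus on either strand. The match is in capitals. All 3 genes lie on the minus strand, and the letters read 5′ to 3′ along the gene.
Hdac4, chr1:92180292-92180591: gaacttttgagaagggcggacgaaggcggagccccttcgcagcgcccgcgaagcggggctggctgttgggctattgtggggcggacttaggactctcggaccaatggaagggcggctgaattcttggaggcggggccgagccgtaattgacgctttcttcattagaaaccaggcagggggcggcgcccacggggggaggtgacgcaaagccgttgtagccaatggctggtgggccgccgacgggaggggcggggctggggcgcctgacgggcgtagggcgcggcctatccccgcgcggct
Mef2a, chr7:67372809-67373108: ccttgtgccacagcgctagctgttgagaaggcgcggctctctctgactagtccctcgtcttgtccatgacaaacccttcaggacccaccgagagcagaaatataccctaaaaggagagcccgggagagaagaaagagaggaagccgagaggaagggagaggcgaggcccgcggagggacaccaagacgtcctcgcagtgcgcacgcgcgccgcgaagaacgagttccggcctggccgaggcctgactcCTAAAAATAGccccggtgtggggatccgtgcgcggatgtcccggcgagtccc
Hdac5, chr11:102230123-102230422: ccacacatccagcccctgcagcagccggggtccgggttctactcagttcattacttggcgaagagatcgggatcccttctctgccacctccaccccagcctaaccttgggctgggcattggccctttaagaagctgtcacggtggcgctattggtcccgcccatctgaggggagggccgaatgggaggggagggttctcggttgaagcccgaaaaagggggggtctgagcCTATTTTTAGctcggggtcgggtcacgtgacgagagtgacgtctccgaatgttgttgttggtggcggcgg
All 8 members matched the RefSeq list, with 14 promoters in all, and 3.19% of 32851 mouse promoters of the same length held the consensus. The match started 2 bases before the start site in Mef2a and 20 bases before it in Hdac5. No factor binding was measured here.

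The values were read counts normalized together over all 30 libraries. Their sums per library ran from 31578614 to 35542279 in the P10 and the wild-type P120 groups, from 33200684 to 41801037 in HT-Veh and from 37083545 to 41522113 in HT-Flx. The sums are totals of normalized values, and the sequencing depth is unknown. Arid1b, the targeted gene, had 2162 to 2334 normalized counts in P10 HT and 3164 to 3309 in P10 WT, a log2 difference of −0.55 ± 0.04 (SE, n = 5 per group, adjusted p = 1.52e-05). At P120 the HT-Flx range was 2164 to 2616 and the WT-Flx range 2961 to 3392. HT-Veh replicate 2, by its label, had 3361, in the wild-type range, and WT-Veh replicate 2 had 2320, in the heterozygous range. The other HT-Veh libraries had 1973 to 2480 and the other WT-Veh libraries 3036 to 3229. Both libraries were kept under their labels. The HT-Veh versus WT-Veh comparison was made without them, over the libraries that the study's table of results lists for it, although its figure legends count all mice. The counts of members and of list genes that rest on either library were repeated without them. Markers of neurons, astrocytes, oligodendrocytes, microglia and endothelium were present in every group, as for whole brain. In such bulk samples fewer cells of a type and less RNA per cell cannot be told apart.

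Per kilobase of the longest coding transcript, Hdac5 had the highest level of the class IIa HDACs in every group, with group means from 864 to 3318 normalized counts per kb. Hdac4 had 277 to 449, Hdac7 had 273 to 440 and Hdac9 had 79.5 to 192. Among the MEF2 genes the order depended on age. Mef2c led at P10 with 2839 per kb in WT and 3169 in HT, and Mef2d led in each P120 group with 1628 to 2859. Mef2a ranged from 449 to 1084 per kb. Mef2b was nearly absent, with 2.96 to 7.95 per kb, and 29 of its 30 libraries had 1 to 9 normalized counts. The exception was P10 WT replicate 1 with 35. Mef2b fell under the minimum mean of 10 set for testing, so 7 of the 8 members were tested.

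**Figure D1:**
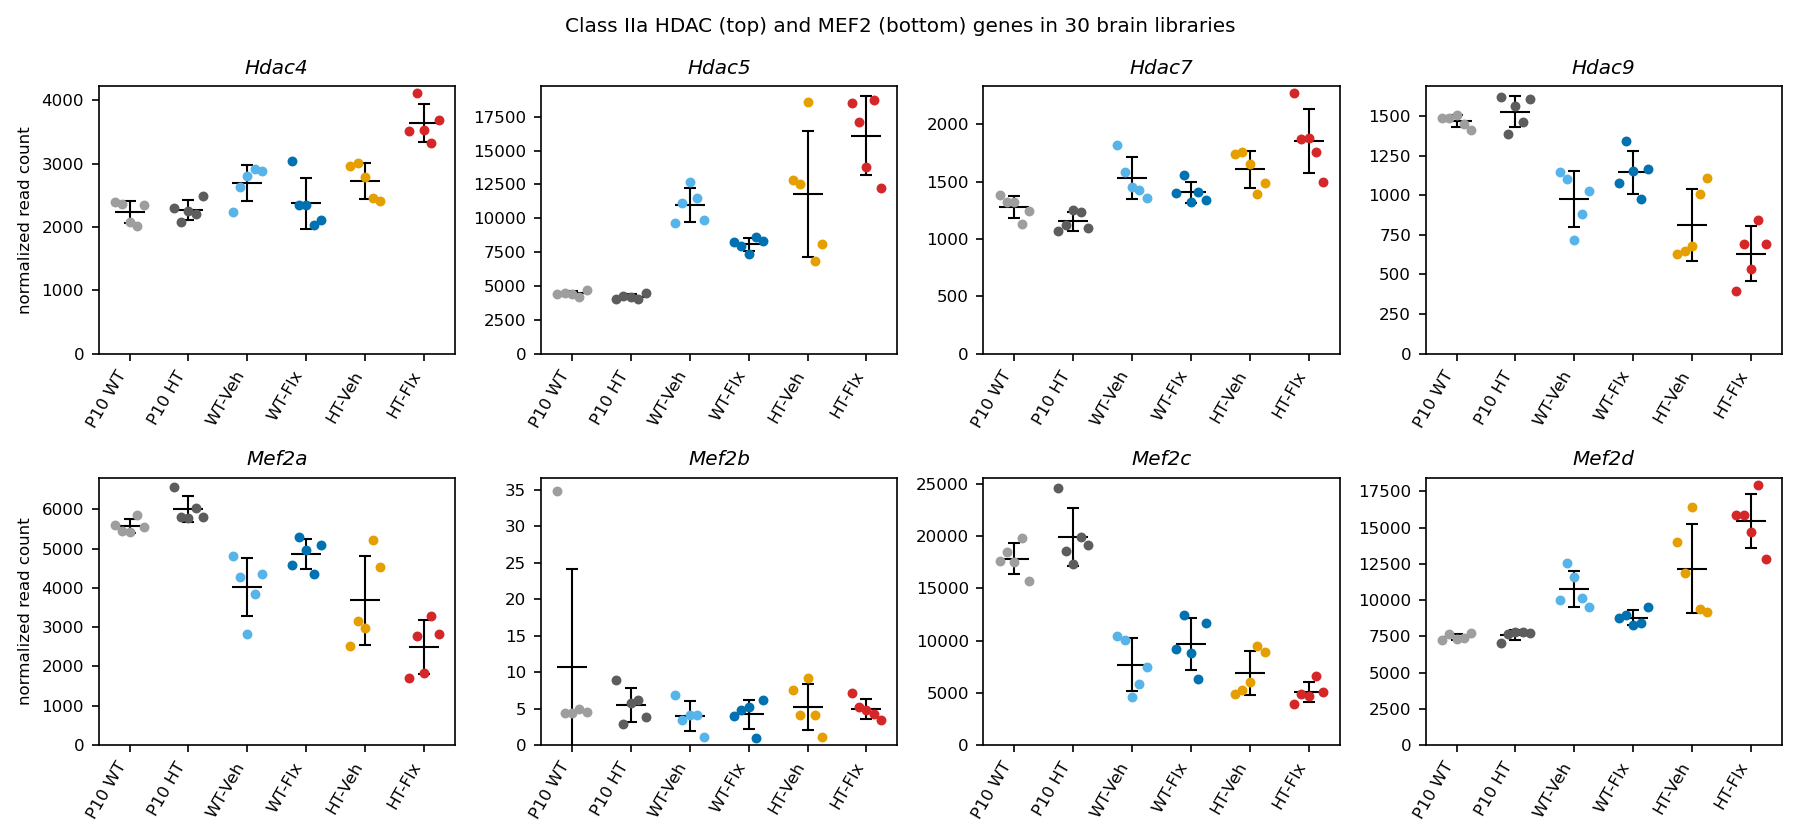
Normalized read counts (y axis, from 0) of the 8 genes in the 6 groups (x axis), with 1 point per library in replicate order and the mean ± SD as black bars (n = 5). Hdac4, Hdac5, Hdac7 and Mef2d had their highest group mean in HT-Flx, and Hdac9, Mef2a and Mef2c their lowest; HT-Veh libraries were widely spread in Hdac5 and Mef2d.

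Hdac4 was highest in HT-Flx brains. Its 5 HT-Flx libraries had 3524, 4121, 3536, 3321 and 3694 normalized counts in replicate order, and its HT-Veh libraries had 2967, 3008, 2785, 2464 and 2412. The WT-Veh libraries had 2234, 2631, 2810, 2921 and 2883, and the WT-Flx libraries had 3042, 2345, 2344, 2035 and 2103. No library outside HT-Flx reached the lowest HT-Flx value. At P10 the range was 2074 to 2497 in HT and 2018 to 2392 in WT. In order of their means the groups were P10 WT (2240 ± 176, SD, n = 5), P10 HT (2266 ± 155), WT-Flx (2374 ± 399), WT-Veh (2696 ± 281), HT-Veh (2727 ± 277) and HT-Flx (3639 ± 300). Each neighbouring pair overlapped except HT-Veh and HT-Flx, whose means were 912 apart.

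Mef2a was lowest in HT-Flx brains. Its HT-Flx libraries had 1709, 2770, 1827, 3286 and 2839 normalized counts and its HT-Veh libraries 2529, 3160, 2970, 5215 and 4539, so the groups overlapped. The WT-Veh libraries had 4803, 4271, 2830, 3853 and 4360, and the WT-Flx libraries 4591, 5294, 4959, 4357 and 5096. WT-Flx lay above every HT-Flx library. The means rose from HT-Flx (2486 ± 686, SD, n = 5) through HT-Veh (3683 ± 1140), WT-Veh (4024 ± 748) and WT-Flx (4859 ± 380) to P10 WT (5579 ± 173) and P10 HT (6003 ± 333). Of the neighbouring pairs, WT-Flx and P10 WT alone did not overlap. The gap from HT-Veh to WT-Veh was smaller than the spread within either group.

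The genotypes were first compared before any drug exposure. At P10 none of the 7 tested members passed the threshold (adjusted p under 0.05, limma), beside 0.0224% of all 17896 genes tested. At an unadjusted p under 0.05 the counts were 2 members and 2249 genes. Mef2a was 0.10 ± 0.04 higher in HT on the log2 scale (unadjusted p = 0.0278, adjusted p = 0.359) and its libraries ran from 5782 to 6569 in HT and from 5434 to 5862 in WT. Hdac7 had a log2 difference of −0.15 ± 0.06 (adjusted p = 0.370). Hdac4 differed by 0.02, with a 95% interval of −0.12 to 0.15.

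In vehicle-treated adults no member separated the genotypes either. With 4 libraries per group, none of the 7 members passed, and 0% of 17784 genes did. Arid1b itself did not pass, although its groups did not overlap (−0.49 ± 0.13, exact permutation p = 0.0286, the smallest that 4 against 4 can give). The lack of a call here thus does not show that a gene was unchanged. At an unadjusted p under 0.05 the counts were 0 members and 229 genes. The log2 difference of Hdac4 between HT-Veh and WT-Veh was −0.03, with a 95% interval of −0.35 to 0.30, and that of Mef2a was −0.09, from −0.64 to 0.46. With all 5 and 5 libraries they were 0.02 and −0.16. HT-Veh libraries were widely spread. Hdac5 had 12837, 12540, 18631, 6818 and 8076 normalized counts in that group, and Mef2d had 14032, 11848, 16395, 9370 and 9188. HT-Veh replicates 4 and 5 were the lowest for both genes and the highest for Hdac9 (1010 and 1109, against 626 to 677) and Mef2c (9435 and 8942, against 4902 to 6055).

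Between the genotypes after fluoxetine many genes differed. In HT-Flx against WT-Flx all 7 tested members passed, beside 63.7% of all 17799 genes tested, so that a member's passing was not unusual. Hdac4, Hdac5, Hdac7 and Mef2d were higher in HT-Flx and Hdac9, Mef2a and Mef2c lower. Hdac4 was 1.54-fold higher, a log2 difference of 0.63 ± 0.11 (SE, n = 5 per group, adjusted p = 0.000337, exact permutation p = 0.00794, the smallest that 5 against 5 can give). Mef2a was 2.01-fold lower, with a log2 difference of −1.01 ± 0.17 (adjusted p = 0.000228). The ranges of HT-Flx and WT-Flx did not overlap for 5 of the 7 members, as for 48.5% of the genes tested. The exceptions were Hdac7 and Mef2c.

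Among the other class IIa HDACs, Hdac5 had 12247 to 18746 normalized counts in HT-Flx and 7348 to 8588 in WT-Flx, a log2 difference of 0.97 ± 0.12 (adjusted p = 4.34e-05). Hdac7 had 1501 to 2275 against 1322 to 1561, a difference of 0.39 ± 0.11 (adjusted p = 0.00592), and the ranges overlapped. Hdac9 went the other way, with 394 to 843 against 973 to 1343 and a difference of −0.90 ± 0.18 (adjusted p = 0.000769). Among the MEF2 genes, Mef2c had 3951 to 6594 against 6277 to 12461, a difference of −0.92 ± 0.18 (adjusted p = 0.000721). Mef2d had 12826 to 17913 against 8289 to 9526, a difference of 0.81 ± 0.09 (adjusted p = 3.54e-05). On the deposited scale Hdac4 thus had the sign of Hdac5 and Hdac7 and the opposite sign to Hdac9, and Mef2a that of Mef2c and the opposite of Mef2d, though the signs of Hdac7 and Mef2c turned under the GC and length correction.

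The paralogs were also set against each other within each library, by testing the difference of their log2 values with an exact two-sided permutation over libraries, adjusted over 54 such contrasts (6 pairs in 9 comparisons). In HT-Flx against WT-Flx, the contrast of Hdac4 with Hdac9 was 1.52 log2 units and that of Mef2a with Mef2d was −1.82 (exact p = 0.00794 and adjusted p = 0.0252 for each). The contrast of Hdac4 with Hdac5 was −0.35 (adjusted p = 0.247), with Hdac7 it was 0.24 (adjusted p = 0.317), and that of Mef2a with Mef2c was −0.09 (adjusted p = 0.75). These last 3 did not pass, which does not show that the genes moved alike. The contrast of Mef2a with Mef2b was −1.31 (adjusted p = 0.0252) and rests on fewer than 10 normalized counts of Mef2b per library.

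The base composition of the transcripts moved with these differences. Over all genes tested in HT-Flx against WT-Flx, split by transcript GC into 10 bins of equal gene number, the median log2 difference was −0.95 in the lowest bin (28.7% to 41.4% GC) and rose in every step to 0.74 in the highest (58.3% to 78.3%). The members higher in HT-Flx had GC-rich transcripts, with 52.5% GC in Hdac4, 55.0% in Mef2d, 58.8% in Hdac5 and 58.9% in Hdac7. The members lower in HT-Flx were AT-rich, with 45.0% in Hdac9, 42.0% in Mef2a and 40.8% in Mef2c. After each library was centred within 100 bins of GC and length, 4 members passed, beside 6395 genes. Hdac4 kept a log2 difference of 0.37 ± 0.10 (adjusted p = 0.0104), Hdac5 of 0.23 ± 0.06 (adjusted p = 0.0143) and Mef2d of 0.33 ± 0.08 (adjusted p = 0.00492). Hdac7 turned to −0.36 ± 0.09 (adjusted p = 0.00818).

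The 3 AT-rich members lost the call on that scale. Mef2a had −0.18 ± 0.08 (adjusted p = 0.0938), Hdac9 −0.16 ± 0.09 (adjusted p = 0.165) and Mef2c 0.19 ± 0.17 (adjusted p = 0.418). The median difference of all genes in the GC bin of Mef2a was −0.76 before correction, and in that of Mef2c −0.95. Of the paralog contrasts in this comparison, Mef2a against Mef2d kept its call at −0.51 (adjusted p = 0.0390), Hdac4 against Hdac9 fell to 0.52 (adjusted p = 0.0612), and Hdac4 against Hdac7 rose to 0.73 (adjusted p = 0.0390). The part of base composition in the members' differences was not tested beyond this correction. Rescaling every library to the same sum of values lowered the median of all genes from 0.02 to −0.23 and the share of higher genes among those past the threshold from 52.0% to 34.1%. It left 6 of the 7 members past the threshold, beside 62.3% of all genes tested. Hdac7 was at 0.14 (adjusted p = 0.222), Hdac4 at 0.38 and Mef2a at −1.26.

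**Figure D2:**
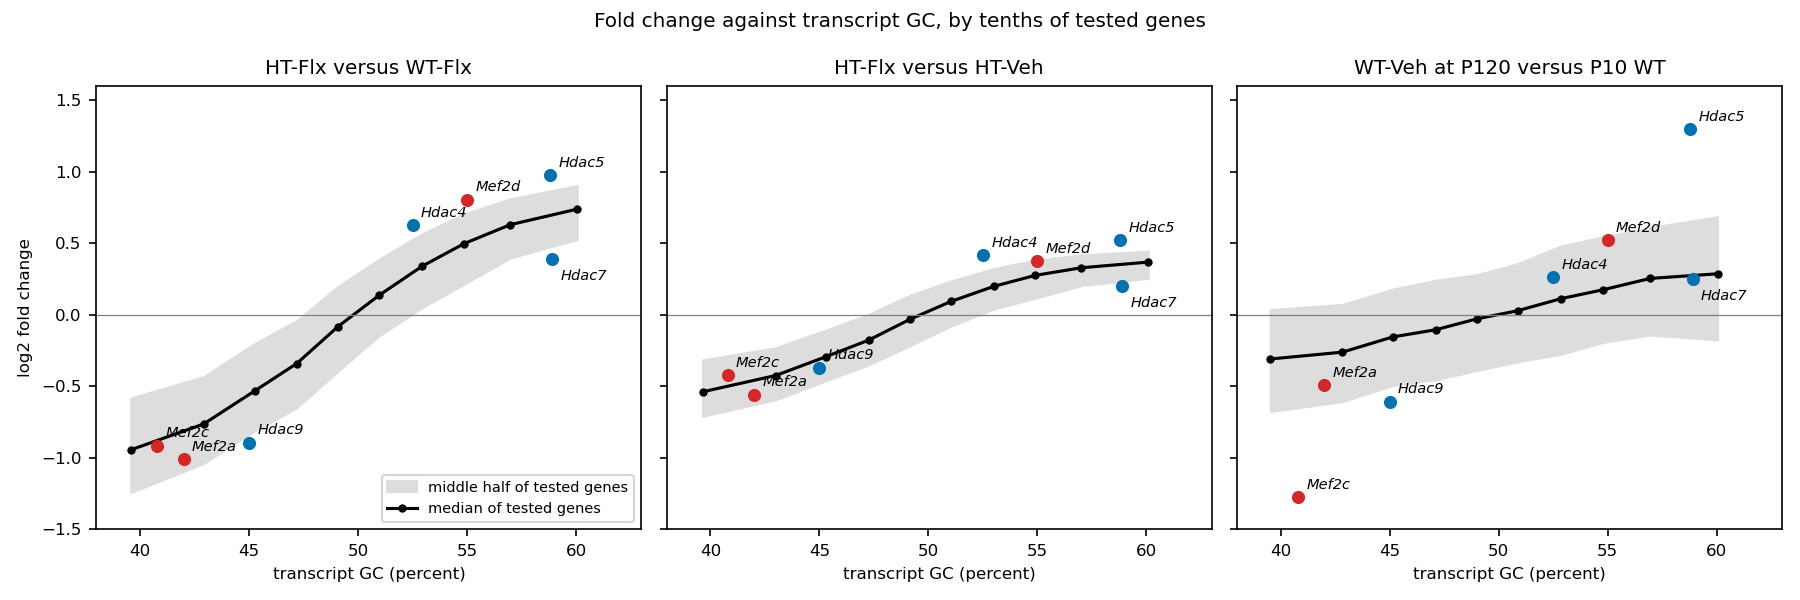
Log2 fold change (y axis) against transcript GC (x axis, percent) in 3 comparisons, with the median of all tested genes in 10 GC bins as a black line, the interquartile range in grey, and class IIa HDACs in blue and MEF2 genes in red. In HT-Flx versus WT-Flx the line ran from −0.95 to 0.74; Hdac4, Hdac5 and Mef2d lay above it, Hdac7, Hdac9 and Mef2a below, and Mef2c near it.

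Fluoxetine was next compared with vehicle within each genotype. In HT mice none of the 7 members passed, and 0% of 17676 genes did, although 3 members and 4082 genes had an unadjusted p under 0.05. Hdac4 was the 1 member whose HT-Flx and HT-Veh libraries did not overlap, as in 1.62% of genes. Its log2 difference was 0.42 ± 0.12 (adjusted p = 0.215, exact permutation p = 0.00794), and 0.26 ± 0.08 after the GC and length correction (adjusted p = 0.439). Mef2a had −0.56 ± 0.23 (adjusted p = 0.215, exact permutation p = 0.0952), and −0.10 ± 0.09 after the correction. Leaving out the library labelled HT-Veh replicate 2, the values were 0.45 and −0.60. With the replicate number as a block Hdac4 and Mef2a passed, among other genes that are counted in the closing section. Neither passed with the block and the correction together.

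In WT mice fluoxetine likewise gave 0 calls among the 7 members and 0% of 17865 genes, with 3 members and 4504 genes at an unadjusted p under 0.05. The signs of the members were the reverse of those in HT mice, as was the trend of all genes with transcript GC, whose median log2 difference went from 0.31 in the lowest bin to −0.27 in the highest in WT mice and from −0.54 to 0.37 in HT mice. Hdac5 had 7348 to 8588 normalized counts in WT-Flx and 9662 to 12716 in WT-Veh without overlap, a log2 difference of −0.44 ± 0.08 (adjusted p = 0.0849, exact permutation p = 0.00794). Mef2d had 8289 to 9526 against 9539 to 12582, also without overlap, a difference of −0.29 ± 0.08 (adjusted p = 0.0931). These were the 2 members without overlap, beside 6.41% of the genes tested. Mef2a was at 0.29 ± 0.12 (adjusted p = 0.172) and Hdac4 at −0.19 ± 0.11 (adjusted p = 0.289). Without WT-Veh replicate 1 or replicate 5, Hdac5 passed (−0.48 and −0.47), as did 1400 and 624 genes. Without the library labelled WT-Veh replicate 2, 0 members and 0 genes passed (3 members and 3787 genes at an unadjusted p under 0.05), with Hdac5 at −0.43, Mef2d at −0.23, Mef2a at 0.32 and Hdac4 at −0.20. Among the paralog contrasts Mef2a against Mef2d was 0.58 (exact p = 0.00794, adjusted p = 0.0252), and 0.19 after the correction (adjusted p = 0.0612).

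The difference between the genotypes in their response to fluoxetine was tested as an interaction over the 20 P120 libraries. It passed for 4 of the 7 members, beside 27.3% of 17796 genes. Hdac4 had an interaction of 0.61 ± 0.16 log2 units, Hdac5 of 0.96 ± 0.27 and Mef2d of 0.66 ± 0.19 (adjusted p = 0.0347 for each). Mef2a had −0.85 ± 0.28 (adjusted p = 0.0370). Mef2c had −0.78 ± 0.33 (adjusted p = 0.0749), Hdac9 −0.61 ± 0.27 (adjusted p = 0.0887) and Hdac7 0.32 ± 0.15 (adjusted p = 0.113). Rescaled to equal sums, 31.7% of the genes past the threshold had a positive sign, against 57.8% as deposited. Without the libraries labelled HT-Veh and WT-Veh replicate 2, 0 members and 0 genes passed (7312 genes at an unadjusted p under 0.05), Hdac4 at 0.65 (adjusted p = 0.0576) and Mef2a at −0.92 (adjusted p = 0.0579). After the GC and length correction 0 members and 0 genes passed (3785 genes at an unadjusted p under 0.05), Hdac4 at 0.35 (adjusted p = 0.161) and Mef2a at −0.14 (adjusted p = 0.446). Leaving out 1 library at a time gave 0 to 6 members, and 0 members without HT-Flx replicate 1, WT-Flx replicate 2 or 3, HT-Veh replicate 4 or 5, or WT-Veh replicate 2, 3 or 4.

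Against wild-type vehicle mice, which share the HT-Flx libraries with the comparisons above, 6 of the 7 members passed in HT-Flx, beside 43.3% of 17681 genes. Hdac4 had a log2 difference of 0.44 ± 0.10 (adjusted p = 0.00790), Hdac5 of 0.54 ± 0.13 (adjusted p = 0.00912) and Mef2d of 0.52 ± 0.11 (adjusted p = 0.00742). Mef2a had −0.72 ± 0.19 (adjusted p = 0.0121), Hdac9 −0.65 ± 0.19 (adjusted p = 0.0183) and Mef2c −0.56 ± 0.21 (adjusted p = 0.0461). Hdac7, at 0.27 ± 0.12, missed the threshold (adjusted p = 0.0808) but passed without HT-Flx replicate 5 (0.35). Mef2c lost its call without any 1 of HT-Flx replicates 1, 2, 3 and 5 or WT-Veh replicates 1, 2 and 5 (−0.57 to −0.44). Rescaled to equal sums, 26.2% of the genes past the threshold were higher, against 54.1%, and Hdac4 was at 0.25 (adjusted p = 0.0676). After the correction 0 members passed, beside 9.81% of all genes tested, with Hdac4 at 0.28 (adjusted p = 0.0513) and Mef2a at −0.13 (adjusted p = 0.306).

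**Figure D3:**
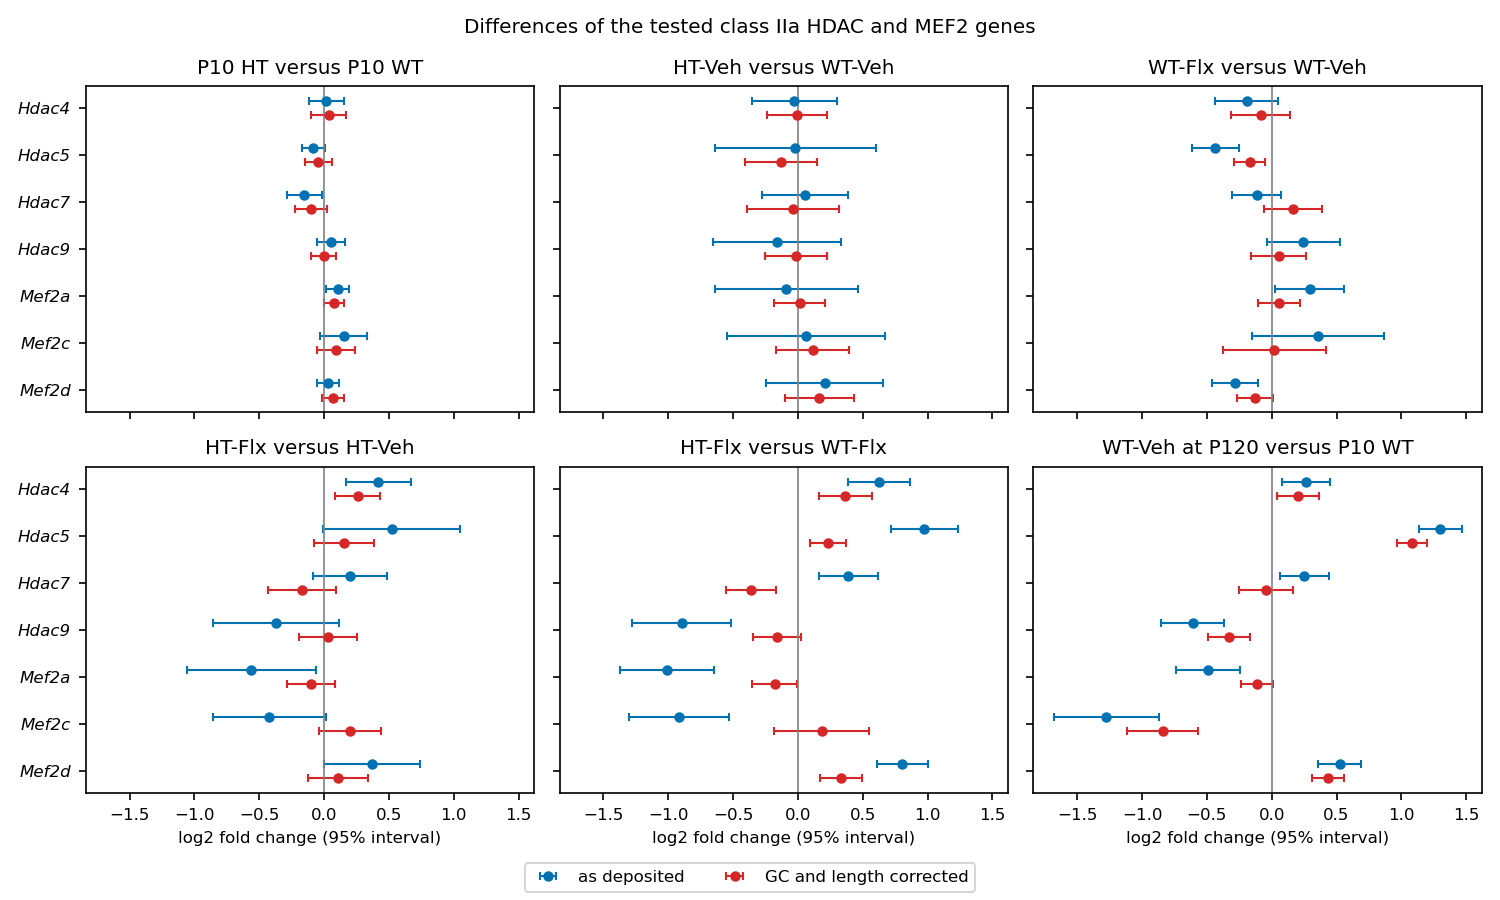
Log2 fold changes (x axis) of the 7 tested members in 6 comparisons with their 95% intervals, on the values as deposited (blue) and after the GC and length correction (red). In HT-Flx versus WT-Flx Hdac7 went from 0.39 to −0.36 and Mef2a from −1.01 to −0.18, while the age difference of Hdac5 went from 1.3 to 1.08.

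Age was then compared within each genotype. In WT-Veh at P120 against P10 WT all 7 tested members passed, beside 58.3% of 17927 genes. Age also carries the vehicle treatment, since the P10 pups were untreated, and age and treatment cannot be told apart. Hdac5 had 4201 to 4680 normalized counts at P10 and 9662 to 12716 at P120, a rise of 1.3 ± 0.08 log2 units (2.46-fold, adjusted p = 2.53e-08). Mef2c had 15739 to 19813 at P10 and 4635 to 10403 at P120, a log2 difference of −1.28 ± 0.19 (2.42-fold lower, adjusted p = 7.26e-05). The ages did not overlap for either gene, as for 5 of the 7 members in all and 45.6% of the genes tested. Mef2d rose by 0.52 ± 0.08 (adjusted p = 6.47e-05), Hdac4 by 0.26 ± 0.08 (adjusted p = 0.0166) and Hdac7 by 0.25 ± 0.09 (adjusted p = 0.0242). Hdac9 had −0.61 ± 0.11 (adjusted p = 0.000445) and Mef2a −0.49 ± 0.11 (adjusted p = 0.00242).

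The age difference of Hdac4 was thus far smaller than that of Hdac5, by −1.03 log2 units (exact p = 0.00794, adjusted p = 0.0252), and Mef2a was lower at P120 by 0.78 log2 units less than Mef2c (adjusted p = 0.0252). Both contrasts kept their calls after the correction, at −0.88 and 0.76 (adjusted p = 0.0390 for each). On that scale Hdac5 still rose by 1.08 ± 0.05 and Mef2d by 0.43 ± 0.06, and Mef2c had −0.84 ± 0.13. Mef2a (−0.11, adjusted p = 0.106) and Hdac7 (−0.04, adjusted p = 0.721) no longer passed. The age calls of Hdac4 and Hdac7 were also lost when libraries were rescaled to equal sums (0.16, adjusted p = 0.104, and 0.15, adjusted p = 0.197), where 39.3% of the genes past the threshold were higher, against 49.5%. That of Hdac7 was lost without P10 WT replicate 4 or WT-Veh replicate 1 or 2 (0.19 to 0.24).

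In HT mice, where HT-Veh at P120 was compared with P10 HT, all 7 tested members again passed, beside 51.1% of 17989 genes. Hdac5 rose by 1.40 ± 0.22 log2 units (adjusted p = 0.000192) and Mef2c had −1.57 ± 0.19 (adjusted p = 2.14e-05). Hdac4 rose by 0.26 ± 0.10 (adjusted p = 0.0473), and its call was lost without any 1 of the 5 P10 HT libraries or of HT-Veh replicates 1, 2 and 3 (0.23 to 0.30). With equal sums it was 0.10 (adjusted p = 0.444), and 37.3% of the genes past the threshold were higher, against 50.5%. Mef2a had −0.76 ± 0.18 (adjusted p = 0.00312), Hdac9 −0.95 ± 0.16 (adjusted p = 0.000406), Mef2d 0.64 ± 0.15 (adjusted p = 0.00378) and Hdac7 0.48 ± 0.11 (adjusted p = 0.00227). After the correction 6 members passed, beside 56.2% of all genes tested, and Hdac7, at 0.03, did not (adjusted p = 0.841).

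As shares of each family's total per kilobase, the make-up of the families shifted with age. Mef2c made up 54.2% ± 2.2 (SD, n = 5) of MEF2 transcript in P10 WT and 30.4% ± 6.3 in WT-Veh, while Mef2d went from 26.4% ± 1.6 to 51.1% ± 7.8. In HT-Flx Mef2d reached 69.6% ± 4.4, Mef2c had 19.5% ± 2.3 and Mef2a 10.9% ± 2.5. Hdac5 made up 54.5% ± 1.1 of class IIa HDAC transcript in P10 WT, 73.3% ± 2.7 in WT-Veh and 77.1% ± 2.8 in HT-Flx, and Hdac9 had 11.0% ± 0.5, 4.04% ± 0.97 and 1.89% ± 0.57. The group means of the Hdac4 share at P120 were between 10.7% ± 2.0 in HT-Flx and 12.0% ± 1.9 in WT-Flx. Its single P120 libraries ran from 7.38% in HT-Veh to 14.8% in WT-Flx. The group means of the Hdac5 share were between 68.4% and 77.1%. Without the vehicle libraries labelled replicate 2, Mef2d had 51.5% ± 9.0 in WT-Veh and 54.8% ± 14.4 in HT-Veh (n = 4). The shares were taken on the values as deposited, without the GC and length correction. On that scale the median log2 difference of all genes rose from the lowest to the highest bin of transcript GC. It went from −0.31 to 0.29 with age in WT mice and from −0.64 to 0.48 in HT-Flx against WT-Veh. These shares were not tested.

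**Figure D4:**
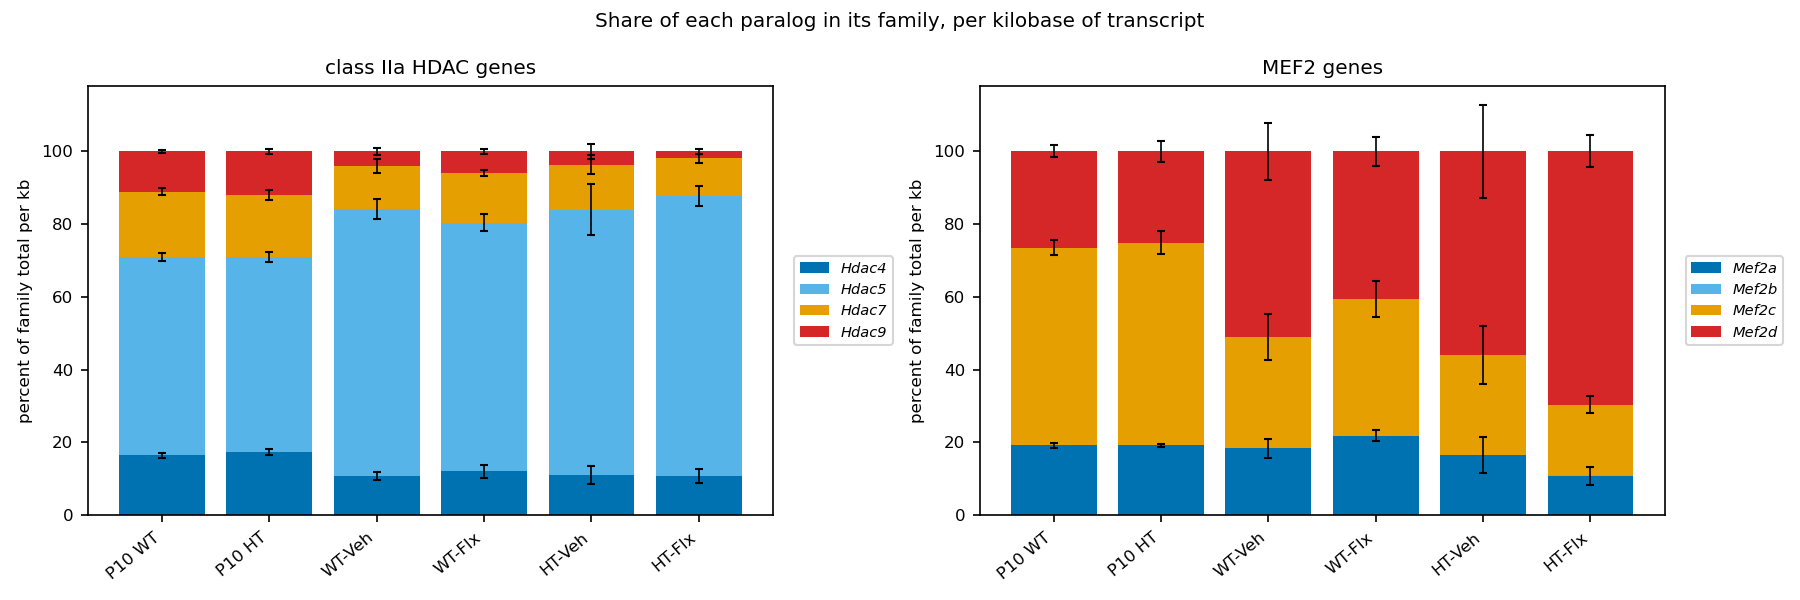
Mean share of each paralog in its family's normalized counts per kilobase (y axis, percent) in the 6 groups (x axis), with the SD over 5 libraries at the top of each segment; Mef2b is under 0.2% and cannot be seen. The mean Mef2d share was 26.4% in P10 WT and 69.6% in HT-Flx, and the group means of the Hdac4 share were between 10.7% and 12.0% at P120. All shares are on the values as deposited, without the GC and length correction.

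Genes of the same pathway moved in both directions in HT-Flx against WT-Flx, where 63.7% of all genes passed. Among kinases and phosphatases that act on class IIa HDACs, 9 of 20 were higher and 8 lower, with a median log2 difference of 0.15 beside 0.02 for all genes. With equal sums, where 62.3% of all genes passed, 5 were higher and 10 lower. Their median was −0.10 beside −0.23, so the balance depended on the scaling. The extremes were the kinases Mark2 (0.82), Camk2b (0.78) and Prkd2 (0.66) on the higher side and Camk2d (−0.75), Camk4 (−0.72) and the calcineurin subunit Ppp3ca (−0.74) on the lower. Of the 7 genes for 14-3-3 proteins, Sfn (0.87) and Ywhag (0.58) were higher and Ywhaq (−0.75) and Ywhab (−0.31) lower. Of 5 genes of the corepressor complex Gps2 (0.43) was higher, while Ncor1 (−0.85), which encodes the scaffold protein NCoR, and Tbl1x (−0.40) were lower.

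Among the other HDACs, Hdac11 (0.84), Hdac10 (0.43) and Hdac6 (0.29) were higher and Hdac2 (−0.75) lower, with 3 of 7 not passing. In this comparison, HT-Flx against WT-Flx, 63.7% of all genes passed. With equal sums 1 of the other HDACs was higher and 3 lower. Equal sums also gave 2 higher and 4 lower 14-3-3 genes, 0 and 4 genes of the corepressor complex, and 3 and 3 MEF2 coactivators and kinases. Of the MEF2 coactivators and kinases, the kinases Mapk7 (0.73) and Cdk5 (0.41), the chromatin remodeller Smarca4 (0.51) and the methyltransferase Carm1 (0.44) were higher, and the acetyltransferase Ep300 (−0.79) lower. Of 10 neuronal MEF2 targets, 3 were higher and 4 lower, with a median of −0.25, and with equal sums 1 was higher and 6 lower. Arc, whose protein drives removal of synaptic AMPA receptors, was higher by 0.59 ± 0.22 (adjusted p = 0.0325) and at 0.34 with equal sums (adjusted p = 0.175). The call of Arc was lost without any 1 of HT-Flx replicates 1 to 4 or WT-Flx replicates 1, 3 and 5 (0.43 to 0.58). Jun was higher by 0.59 and Klf4, a transcription factor gene, by 0.44 (adjusted p = 0.00286), and Klf4 was at 0.19 with equal sums (adjusted p = 0.158). The scaffold gene Homer1 (−1.25), Lgi1 (−1.07) and the growth factor Bdnf (−0.49) were lower. After the GC and length correction Arc had −0.15, Klf4 −0.085, Carm1 −0.20, Mapk7 −0.02, Gps2 −0.06, Hdac10 −0.16 and Hdac6 −0.20, and Bdnf had 0.48, Tbl1x 0.18, Camk2d 0.08 and Ywhab 0.07, so the direction of these 11 genes depended on it. On that scale the calls among these lists fell to 5 of 20 kinases and phosphatases and 4 of 10 targets, beside 36.0% of all genes. Of the targets 3 were higher and 1 lower. The MEF2 coactivators and kinases had 0 higher and 3 lower, with a median of −0.18. The 14-3-3 genes had 3 higher and 1 lower, and the corepressor complex and the other HDACs each had 1 and 1.

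With age in WT mice, where 58.3% of all genes passed, 5 of 10 MEF2 targets were higher and 2 lower at P120. Arc rose by 2.72 ± 0.19 log2 units (1296 ± 417 to 8415 ± 1873 normalized counts, SD, n = 5), the nuclear receptor gene Nr4a1 by 1.61 and the potassium channel gene Kcna1 by 0.77, while Pcdh17 (−0.93) and Pcdh10 (−0.53), which encode protocadherins, were lower. Among the kinases and phosphatases, 10 of 20 were higher and 6 lower (6 and 8 with equal sums, and 8 and 6 without WT-Veh replicate 2), led by Camk2a (1.13), Sik3 (0.80) and Camk2g (0.46) and by Camk4 (−1.19), Ppp3cb (−0.63) and Ppp3cc (−0.53). Of 7 other HDACs 3 were higher, Hdac11 (0.85), Hdac8 (0.53) and Hdac10 (0.46), and 4 lower, of which Hdac2 (−0.76), Hdac3 (−0.33) and Hdac6 (−0.30) were the furthest.

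In the same comparison, where 58.3% of all genes passed, 2 of the 14-3-3 genes were higher at P120, Sfn (0.63) and Ywhah (0.22). The other 5 were lower, led by Ywhaq (−0.60), Ywhae (−0.48) and Ywhag (−0.33). In the corepressor complex Gps2 (0.40) was higher and Ncor1 (−0.48), Hdac3 and Tbl1x (−0.24) lower. Of the MEF2 coactivators and kinases, Mapk14 (0.47), Cdk5 (0.29) and Crebbp (0.16) were higher and Mapk7 (−1.02) lower. With equal sums 1 of the 14-3-3 genes was higher and 5 lower, and 2 and 2 MEF2 coactivators and kinases. After the GC and length correction the counts were 1 and 3 and 3 and 3, beside 59.7% of all genes. Without WT-Veh replicate 2 the MEF2 coactivators and kinases had 2 higher and 1 lower, beside 56.1% of all genes.

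The lists were also counted in the comparisons that share libraries with these. In HT-Flx against WT-Veh, where 43.3% of all genes passed, 6 of 20 kinases and phosphatases were higher, led by Mark2 (0.58), Camk2b (0.55) and Sik3 (0.40), and 8 lower, led by Camk2d (−0.60), Prkd3 (−0.55) and Camk4 (−0.48). Of the 14-3-3 genes Sfn (0.57) and Ywhag (0.41) were higher and Ywhaq (−0.55) lower, and of the corepressors Ncor1 (−0.67) was lower. Mapk7 (0.47), Smarca4 (0.37), Carm1 (0.28), Cdk5 (0.26), Hdac11 (0.55) and Hdac10 (0.34) were higher, and Ep300 (−0.70), Hdac2 (−0.52), Homer1 (−0.85) and Lgi1 (−0.73) lower. Carm1, Hdac10 and Hdac2 changed sign there after the GC and length correction. On that scale 1 of the kinases and phosphatases was higher and 0 lower, beside 9.81% of all genes passing. The counts of higher and lower genes were 2 and 0 for 14-3-3 proteins and 0 and 1 for the corepressor complex. They were 0 and 2 for MEF2 coactivators and kinases, 0 and 0 for the other HDACs and 2 and 1 for MEF2 targets. With equal sums 2 kinases and phosphatases were higher and 9 lower, 0 and 3 14-3-3 genes, 1 and 2 MEF2 coactivators and kinases, and 1 and 1 of the other HDACs. Without WT-Veh replicate 2 the kinases and phosphatases had 6 higher and 3 lower, the 14-3-3 genes 1 and 1 and the MEF2 coactivators and kinases 3 and 0, beside 36.5% of all genes.

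The interaction passed for 27.3% of all genes, and 57.8% of those past the threshold had a positive sign. Among the 20 kinases and phosphatases it passed with a positive sign for 6, led by Prkd2 (0.67), Camk2b (0.66) and Sik1 (0.66). It passed with a negative sign for Ppp3ca (−0.64) and Ppp3r1 (−0.45). It was also positive for Sfn (0.73), Ywhag (0.50), Gps2 (0.42), Mapk7 (0.54), Smarca4 (0.44), Carm1 (0.39), Hdac11 (0.72), Hdac6 (0.35), Klf4 (0.63) and Jun (0.57), and negative for Ywhaq (−0.69), Hdac2 (−0.63) and Lgi1 (−0.88). With equal sums 2 kinases and phosphatases had a positive and 5 a negative sign, and 0 and 2 of the 14-3-3 genes. None of these genes passed without the libraries labelled HT-Veh and WT-Veh replicate 2, where 0 genes passed in all, or after the correction, where Carm1, Hdac2, Hdac6, Mapk7, Ppp3r1 and Smarca4 changed sign. In the comparisons of genotype at P10, of genotype under vehicle and of fluoxetine within either genotype, 0 genes of these 6 lists passed.

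With age in HT mice 6 of 20 kinases and phosphatases were higher, led by Camk2a (1.12), Sik3 (0.81) and Mark2 (0.65), and 6 lower, led by Camk4 (−1.40), Ppp3cb (−0.78) and Camk2d (−0.77), beside 51.1% of all genes. With equal sums 4 were higher and 7 lower, and without HT-Veh replicate 2 the counts were 4 and 6. Arc rose by 2.69 ± 0.26 log2 units, Nr4a1 by 1.01 and Jun by 0.81, while Pcdh17 (−1.06) and Pcdh10 (−0.63) were lower. Hdac11 (0.99), Hdac8 (0.45), Sfn (0.68), Mapk14 (0.47) and Gps2 (0.44) were higher. Hdac2 (−0.93), Hdac6 (−0.38), Hdac3 (−0.36), Ncor1 (−0.87), Tbl1x (−0.36), Mapk7 (−0.73), Ywhaq (−0.64), Ywhab (−0.40), Ywhae (−0.35) and Ywhaz (−0.33) were lower. After the correction Pcdh10 and Ywhaz changed sign.

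Cell type markers moved beside the members. In HT-Flx against WT-Flx, where 63.7% of all genes passed, 9 of 10 neuron markers passed, 4 of them higher and 5 lower. Their summed level was 196294 to 238218 in HT-Flx and 213148 to 228965 in WT-Flx. Of 8 mature oligodendrocyte markers 4 were higher and 2 lower, and their sum was 257258 to 286498 against 183359 to 243160. The sums of 6 oligodendrocyte precursor markers (14011 to 19338 against 11172 to 13037) and of 10 microglia markers (10972 to 17284 against 8937 to 10923) were also higher without overlap on the deposited scale. Of the former 4 of 6 were higher and 1 lower, and of the latter 6 of 10 and 1. With libraries scaled to equal sums the ranges of these 3 lists overlapped, and those of the neuron markers did not (180863 to 208720 in HT-Flx against 233245 to 251419). After the GC and length correction 0 precursor markers were higher and 2 lower, and 1 microglia marker was higher and 0 lower, beside 36.0% of all genes passing. Endothelial markers, with 3 of 10 higher and 2 lower, had sums of 8740 to 9673 against 7865 to 9118. Of 8 astrocyte markers 4 were higher and 4 lower, and their sums overlapped (124247 to 159449 against 133819 to 160956). Glutamatergic neuron markers (3 of 8 higher, 1 lower), GABAergic neuron markers (3 of 8 higher, 2 lower) and blood cell markers (3 of 6 higher, 0 lower) also overlapped in their sums. The part of these cell types in the members' differences was not tested.

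Within the P120 groups the members also varied from library to library. The 3 genes whose deviations from the group means were most like those of Mef2a over the 20 P120 libraries, among 13096 genes with a mean of at least 100, were Tomm70a, Cdc27 and Capza2 (Pearson's r = 0.988, 0.987 and 0.986), all with AT-rich transcripts (40.7%, 39.9% and 39.3% GC). For Hdac4 they were Myo1d, Pcdhgb2 and Ext2 (r = 0.828, 0.776 and 0.772). Among the members, deviations of Mef2a went with those of Hdac9 (r = 0.945) and Mef2c (r = 0.809), and those of Hdac5 with those of Mef2d (r = 0.898), while Hdac4 was less tied to Hdac5 (r = 0.307) and not to Hdac7 (r = −0.04). Transcripts of Mef2a, Hdac9 and Mef2c were AT-rich (42.0%, 45.0% and 40.8% GC). Those of Hdac5 and Mef2d were GC-rich (58.8% and 55.0%), as were those of Hdac4 (52.5%) and Hdac7 (58.9%). The correlations were taken without the GC and length correction and with both vehicle libraries labelled replicate 2. They describe 20 libraries that share a normalization and were not tested.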

How the data were processed

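RNA-seq was done on whole brain from 30 male mice. The deposited values are signal, namely read counts per gene that the authors normalized with DESeq2 1.30.1 after quantification with Salmon 1.1.0 against the GRCm38 transcriptome. All libraries were normalized together. The values are not whole and reads could not be recovered, so depth is unknown and count tests were not used. Of the genes, 99.9% matched a symbol.

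Values were compared as log2(value + 1) with limma 3.58.1 (R 4.3.3), with an intensity trend, over genes with a mean of at least 10 in the compared libraries, and Benjamini-Hochberg adjustment over all of them. Fold changes are on that scale. Single values and paralog contrasts were tested with exact two-sided permutations (Python 3.11.15, scipy 1.17.1). The scripts were tested on simulated data. The GC and length correction subtracted each library's mean deviation in 100 bins (10 of transcript GC by 10 of length). Alternatives covered pseudocounts, low-value filters, scalings, the replicate number as a block, all 4 P120 groups in one fit and each library left out; rescaling to equal sums was added after seeing the data. HT-Veh and WT-Veh replicate 2 were left out of their comparison, for which the study's supplementary table of results does not list them although its figure legends count all mice. Replicates are separate mice by the labels.

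The members and the gene lists (other HDACs, kinases and phosphatases, 14-3-3 proteins, corepressors, MEF2 coactivators, neuronal MEF2 targets, cell type markers) were chosen with earlier results of these data known. From each pathway list and comparison, every gene past the threshold was named where 5 or fewer passed, and otherwise the 3 furthest in each direction. Some genes of the lists are not reported here and were left out of the list counts. Neither overlapping genes (Mef2b shares its strand with Borcs8, and Hdac7, Mef2a and Mef2d overlap genes on the other strand) nor isoforms were separated here, and the strand setting of the quantification is not given in the sources used here.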

Additional observations from a re-analysis of the deposited data

Results flagged for a closer look

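Among 48 sets of 5 libraries (8 genes in 6 groups), 2 held a library far from the other 4, where chance flags about 1 in 20. Mef2b had 34.8 normalized counts in P10 WT replicate 1, beside 4.43 to 5.01 in the others of that group. Mef2d had 7021 in P10 HT replicate 1, beside 7686 to 7832 in the others.

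The response to fluoxetine differed between HT and WT mice for 4 members by the interaction test, beside 27.3% of 17796 genes tested. The interaction was 0.61 log2 units for Hdac4, 0.96 for Hdac5, 0.66 for Mef2d and −0.85 for Mef2a (limma, adjusted p from 0.0347 to 0.0370). None of the 4 passed without the 2 libraries whose Arid1b level goes against their labels, or after the GC and length correction, where the values were 0.35 for Hdac4, 0.33 for Hdac5, 0.24 for Mef2d and −0.14 for Mef2a.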

How the results depend on the processing

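The 7 member calls in HT-Flx versus WT-Flx held under each pseudocount, low-value filter, median-of-ratios rescaling and trend setting. They also held with the replicate block, and with every library left out in turn. The libraries were already normalized together, so the median-of-ratios rescaling could change little. The tested members also lay well above the pseudocounts and filters. In that comparison Hdac7 lost its call with equal sums, a setting chosen after seeing the data. With the GC and length correction, with or without the replicate block, 4 members passed there (6395 genes without the block against 11330), 0 in HT-Flx versus WT-Veh (1734 genes against 7651) and 0 for the interaction (0 genes against 4852). With the block and that correction together, 4 members passed for WT-Veh at P120 versus P10 WT. With the correction alone 59.7% of all genes passed in that comparison, and the share with the block is not given here. Without the libraries labelled HT-Veh and WT-Veh 2, 0 passed for the interaction. Leaving out 1 library at a time gave 0 to 6 members for the interaction (0 to 7667 genes) and 0 to 1 for WT-Flx versus WT-Veh (0 to 1400 genes). Of the 54 paralog contrasts, 17 passed, 11 after the correction and 14 to 18 with a library left out. With the replicate number as a block 0 could pass, since 5 pairs give no exact p under 0.0625.

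The main fits did not pair libraries by replicate number, and in no comparison did every same-numbered pair correlate above 0.1. In HT-Flx versus HT-Veh the correlations ran from −0.018 to 0.407, with a mean of 0.179 beside −0.044 for other pairs. Of the 5 HT-Flx libraries, 3 correlated best with their own number, so whether the numbers pair libraries in that comparison was not settled. There the replicate block gave 1355 calls against 0, and 2 members (Hdac4 and Mef2a). With the correction as well it gave 2 calls and 0 members. At P10 the block gave 7 gene calls against 4.

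With the correction, with or without the block, Hdac7 reversed to −0.040 in HT-Veh versus WT-Veh, −0.17 in HT-Flx versus HT-Veh, 0.16 in WT-Flx versus WT-Veh, −0.36 in HT-Flx versus WT-Flx, −0.20 in HT-Flx versus WT-Veh, −0.33 in the interaction and −0.043 with age in WT. Mef2c reversed to 0.20 in HT-Flx versus HT-Veh and to 0.19 in HT-Flx versus WT-Flx, in HT-Flx versus WT-Veh and in the interaction, Hdac9 to −0.0034 at P10 and 0.029 in HT-Flx versus HT-Veh, and Mef2a to 0.014 in HT-Veh versus WT-Veh. In HT-Flx versus WT-Flx, Arc reversed to −0.15, Klf4 to −0.085, Carm1 to −0.20, Gps2 to −0.063, Hdac10 to −0.16, Hdac6 to −0.20, Mapk7 to −0.016, Bdnf to 0.48, Tbl1x to 0.18, Camk2d to 0.085 and Ywhab to 0.068. In HT-Flx versus WT-Veh, Carm1 reversed to −0.13, Hdac10 to −0.062 and Hdac2 to 0.0073. In the interaction, Carm1 reversed to −0.17, Hdac2 to 0.0058, Hdac6 to −0.10, Mapk7 to −0.087, Ppp3r1 to 0.31 and Smarca4 to −0.10, and with age in HT Pcdh10 to 0.068 and Ywhaz to 0.011. The cause was not tested.

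In HT-Veh versus WT-Veh, no member passed under any alternative run, and small values changed sign. With all 5 and 5 libraries Hdac4 was 0.018, Hdac5 0.017 and Mef2c −0.14, and with equal sums, a setting chosen after seeing the data, Hdac7 was −0.020 and Mef2c −0.013. With a library left out Hdac4 ran from −0.12 to 0.018, Hdac5 from −0.29 to 0.20, Mef2a from −0.26 to 0.086 and Mef2c from −0.12 to 0.27, and at P10 Hdac4 ran from −0.019 to 0.049. The spread between 5 mice limits the precision, and no counting error can be given without the depth.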
